A study of Mus musculus with 12 samples.

Results

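The comparison described here sets mouse cerebral vessels taken 30 min after lipopolysaccharide (LPS) against vessels taken 15 min after LPS, and asks what was new, what was kept, and what was reversed between these time points. It covers 6 of the 12 libraries of the study, the 3 labelled LPS 30 min and the 3 labelled LPS 15 min, and all 19150 genes that passed the filter on low counts. All mice were wild type, of the strain C57BL6, and aged 2 to 3 months. The LPS mice received 10 mg/kg of LPS by intraperitoneal injection, and the PBS mice, whose 3 libraries are given beside the results, received PBS in place of LPS. A further group of 3 libraries was taken at 4 h. Per the labels, each library pooled the vessels of 1 male and 1 female mouse, so that single mice cannot be told apart. The sources used here do not say outright that the 3 libraries of a group came from different mice, and the spread between them, on which each SE and p-value rests, may be technical. The vessels came from forebrains of perfused mice with the meninges removed, and were separated by homogenization, a dextran density step, and a nylon mesh. They were not sorted by cell type.

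LPS, a cell wall component of Gram-negative bacteria, is bound by CD14 and sensed by TLR4, and the signal runs through kinases to the transcription factors NF-kB and AP-1. Immediate early genes are transcribed from factors already present in the cell, whereas later genes can depend on factors made in the first wave. NF-kB is held in the cytoplasm by inhibitors such as the product of Nfkbia, and several of its targets (Nfkbia, Tnfaip3, Zfp36) in turn limit the response. In brain endothelium, which forms the blood-brain barrier, NF-kB is known to switch on adhesion molecules and chemokines that recruit leukocytes.

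The files give 20.7 to 25.9 M fragments per library at 15 min and 21.6 to 22.4 M at 30 min. Markers of endothelial cells were present as the label requires, with 8122 to 8269 CPM (fragments of each gene per 1000000 of the library after TMM scaling, here summed over 10 markers) at 15 min, 7885 to 7938 CPM at 30 min, and 9498 to 9745 CPM in PBS, and 0 of the 10 was called between 15 and 30 min. The preparations held other cells as well, and many of these differed between the time points. Of the 18 marker lists, only the sums of microglia and lymphocytes overlapped between the 15 and 30 min libraries. The sums of endothelial cells, pericytes, neurons, and secretory epithelium were lower at 30 min, and those of the other lists higher. Astrocyte markers, for example, went from 504 to 540 CPM at 15 min to 649 to 682 CPM at 30 min. Summed over 10 markers, skeletal muscle genes were at 14.2 to 17.1 CPM at 15 min, 195 to 209 CPM at 30 min, and 13.5 to 18.9 CPM in PBS. Ependymal markers (5 genes) went from 130 to 138 CPM at 15 min to 258 to 271 CPM at 30 min, and choroid plexus markers (6 genes) from 9348 to 9849 CPM to 13831 to 14170 CPM. Neuronal markers (8 genes) were at 767 to 789 CPM at 15 min against 466 to 470 CPM at 30 min and 478 to 496 CPM in PBS. Xist, the RNA that coats the inactive X chromosome of female cells, was at 108, 74.0, and 31.5 CPM at 15 min and 11.6, 15.5, and 20.9 CPM at 30 min, below the 254 to 371 CPM of the PBS libraries although each pool held 1 female. Of 4 Y-linked genes none was called between 15 and 30 min. The means of all 4 stood above PBS at both time points. Ddx3y was at 40.2 to 54.4 CPM in PBS, 60.5 to 79.2 CPM at 15 min, and 103 to 106 CPM at 30 min. It was called higher at 30 min than in PBS (log2 difference 1.11, edgeR adjusted p = 5.17e-06), and the others were not called against PBS. In these bulk libraries fewer cells of a type and less RNA per cell cannot be told apart, and the part of these differences in the results was not tested. The muscle, ependymal, and neuronal differences were shared by all 3 libraries of a group, and the common biological coefficient of variation over the 12 libraries was 0.0524; separate mice and shared input of the 3 libraries cannot be told apart from these values.

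**Figure D1:**
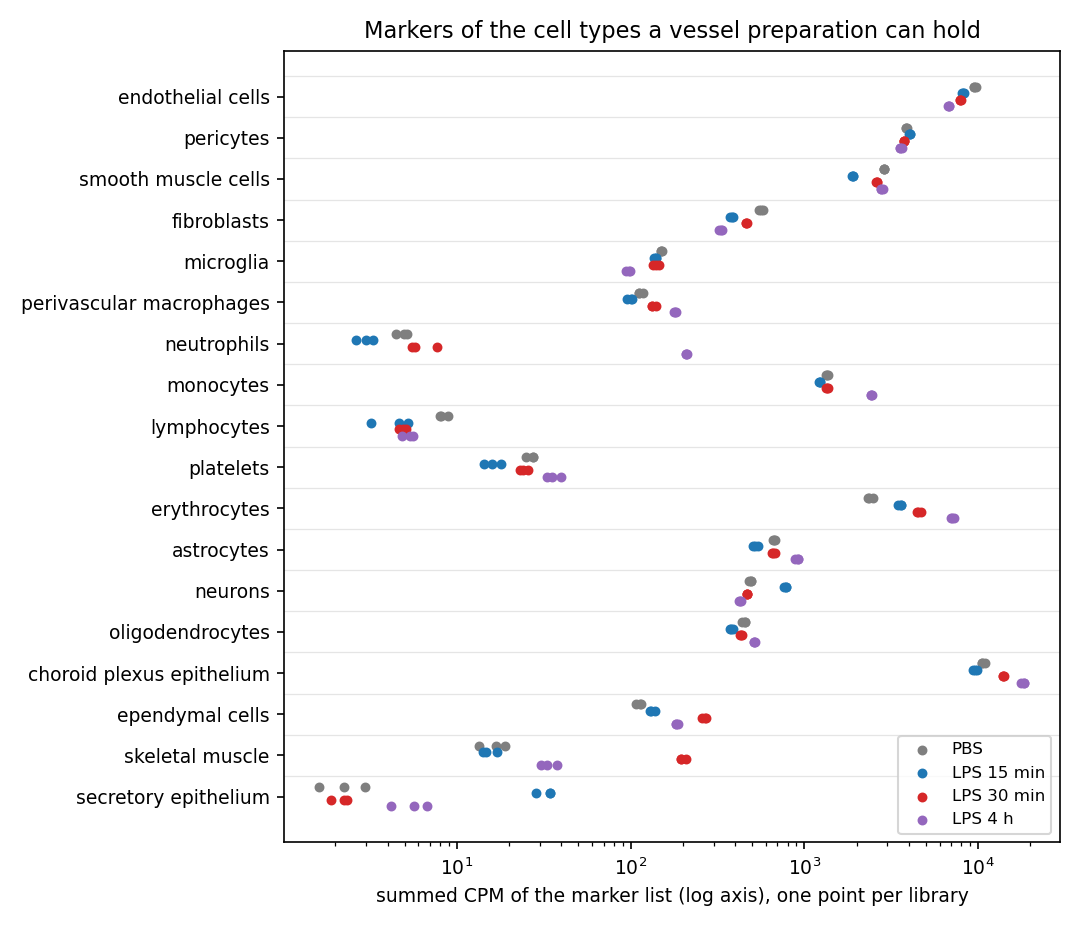
Summed CPM (log axis) of 18 marker lists in each of the 12 libraries, 1 point per library, coloured by group. Endothelial and pericyte markers differ little between 15 and 30 min, skeletal muscle markers stand at 195 to 209 CPM in the 30 min libraries, and secretory epithelium markers stand at 28.7 to 34.5 CPM in the 15 min libraries.

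Between 15 and 30 min, 530 genes rose (2.77% of those tested) and 381 fell (1.99%), in a test against a change of at most 1.5-fold (0.58 on the log2 scale) with edgeR at an adjusted p below 0.05. Together 911 genes (4.76%) were called. Genes of early transcription, NF-kB control, chemokines, cytokines, and leukocyte adhesion were among the rises, and neuronal genes among the falls. Of 457 tested genes in the 24 lists of vascular and inflammatory genes, 111 rose (24.3%) and 2 fell (0.438%). The lists were drawn up with earlier results of these data known, so these shares are descriptions. Each count of list members below is to be read beside the 2.77% of all genes tested that rose and the 1.99% that fell. Of 141 rises of at least 4-fold, 50 were in these lists and 8 in the skeletal muscle list. Rises made up 58.2% of all calls, 37.1% when only library size was used for scaling, and 69.0% with limma on the authors' normalized table. Scaling by library size alone moved the median log2 difference of all genes from -0.0035 to -0.144, and the differences below are relative to the TMM scale.

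**Figure D2:**
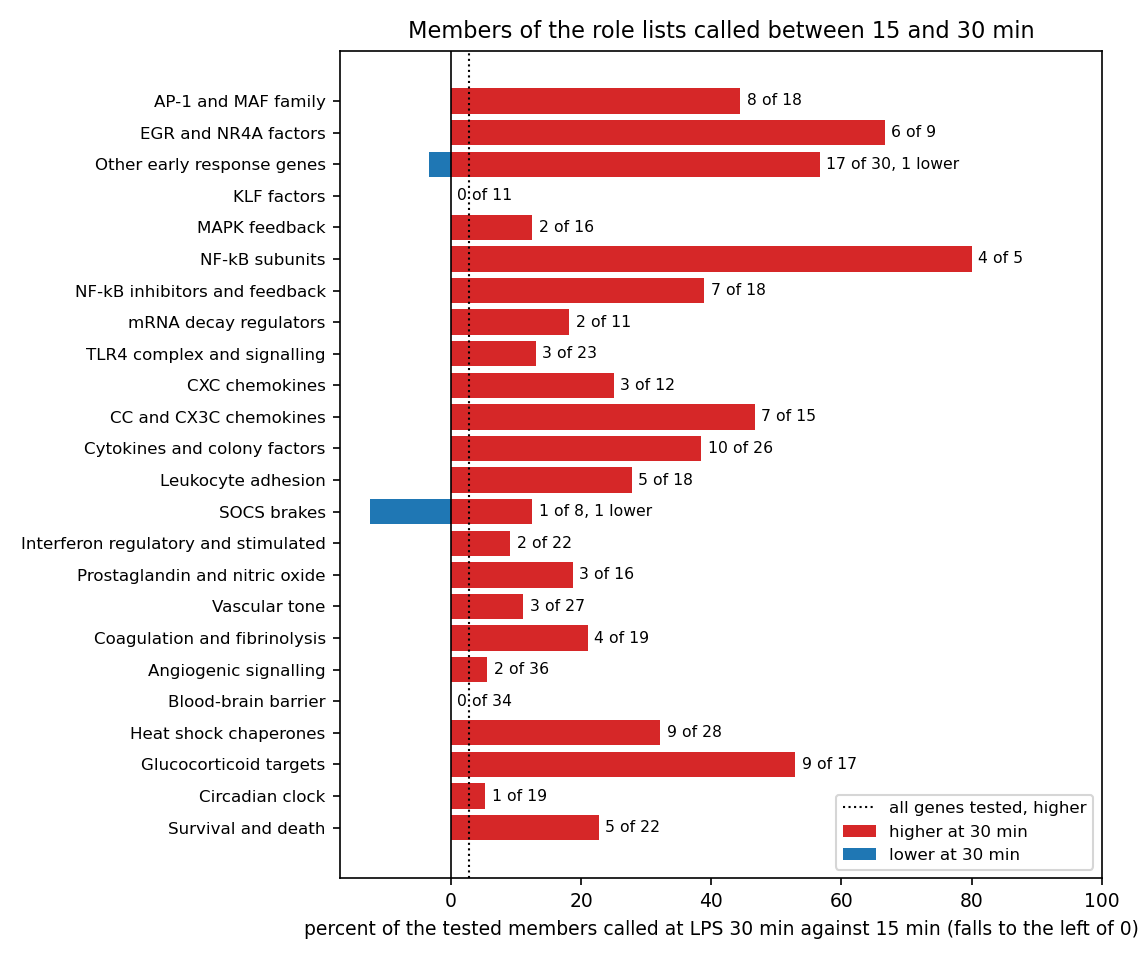
Percent of the tested members of each of 24 gene lists that were called higher (right of 0) or lower (left of 0) at LPS 30 min than at LPS 15 min, with counts beside the bars. The dotted line marks the 2.77% of all tested genes that rose; no member of the KLF and blood-brain barrier lists was called.

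Each gene was classed by its step from PBS to 15 min and its step from 15 to 30 min. In the first step 814 genes were called (4.25%), 642 higher (3.35%) and 172 lower (0.898%) than in PBS. Of these, 77 moved on in the same direction (76 up, and Xist down), 177 were kept (110 up and 67 down), with a 95% interval of the second step wholly within 0.58 of 0, and 272 turned back. The remaining 288 could not be placed, since they had neither a call nor such an interval. A further 562 genes were called only in the second step (431 up and 131 down), and for 211 of the 431 the interval of the first step lay within 0.58 of PBS. At 30 min 315 of the 431 were called higher than in PBS, as were 3.8% of all genes tested. The 131 falls were mostly not falls below PBS. Their median log2 difference from PBS was 0.74 at 15 min and -0.34 at 30 min. For 8 of the 131 the interval of the first step lay within 0.58 of PBS. At 30 min 7 were called lower than in PBS, as were 0.815% of all genes tested. Both steps use the LPS 15 min libraries, so a deviation of these libraries moves the steps in opposite directions, and the sizes of the classes received no test.

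**Figure D3:**
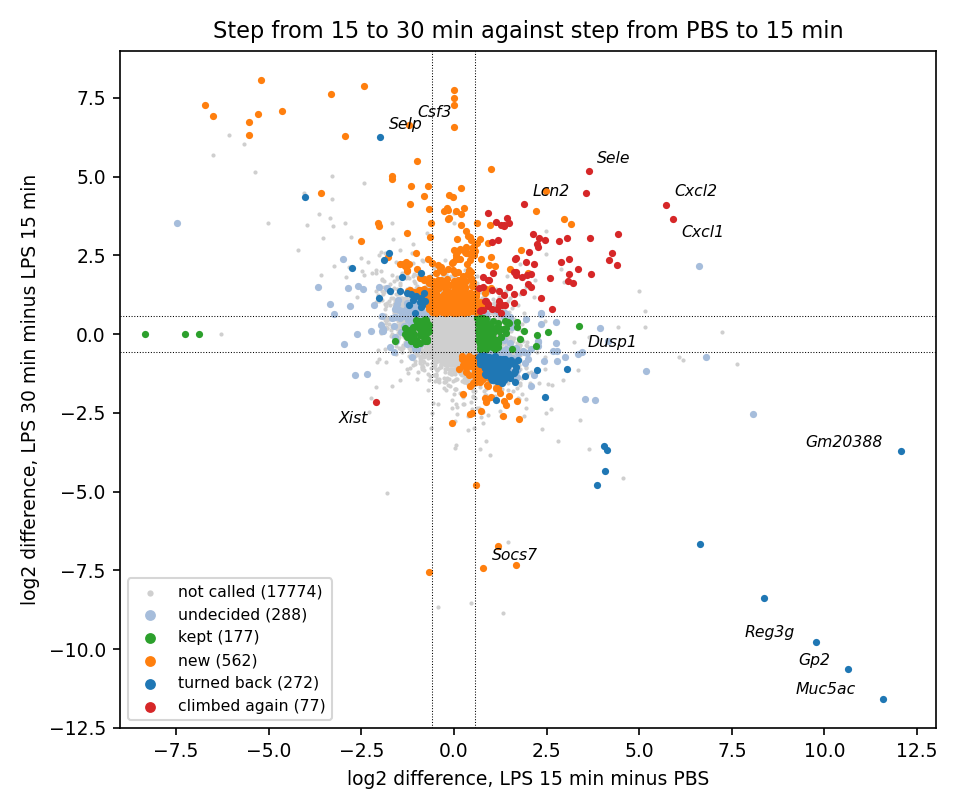
Each point is 1 of 19150 genes, with its log2 difference LPS 15 min minus PBS on the x axis and LPS 30 min minus LPS 15 min on the y axis, coloured by class; dotted lines mark 0.58 on either side of 0. The 76 genes that climbed again lie in the upper right, and the genes that turned back in the upper left and lower right; the axes share the LPS 15 min libraries.

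Of the 10 largest rises, 5 were in genes of the skeletal muscle sarcomere (Myoz1, Myh4, Myh1, Tnnc2, and Tnnt3), whose markers differed between the groups as given above, and the other 5 were Csf3, Selp, Serpina3f, Sele, and Lcn2. E-selectin (Sele), which lets leukocytes roll on endothelium, was at 5.12, 5.78, and 5.25 CPM at 15 min and at 198, 195, and 193 CPM at 30 min. The groups did not overlap, and the log2 difference was 5.19 ± 0.046 (SE; edgeR adjusted p = 4.21e-27), a 36.4-fold rise on top of a first step of 3.64. P-selectin (Selp), which lies on the same chromosome (Sele at chr1:164048234-164057677 and Selp at chr1:164115264-164150026 of GRCm38, both on the plus strand), was at 0.237, 0, and 0.226 CPM at 15 min and at 14.1, 13.2, and 11.6 CPM at 30 min. Its log2 difference was 6.26 ± 0.21 (edgeR adjusted p = 5.03e-16). Unlike Sele, Selp had been below PBS (0.487 to 0.954 CPM) in the first step, with 13 fragments over the 3 libraries at 15 min. Csf3, the granulocyte colony factor, was at 0.102, 0.0425, and 0.151 CPM at 15 min and at 10.1, 10.8, and 10.8 CPM at 30 min, from 8 to 727 fragments over the 3 libraries, a log2 difference of 6.64 ± 0.14 (edgeR adjusted p = 7.8e-20). For Csf3 and Selp, with 8 and 13 fragments at 15 min, the printed SEs are smaller than the counting of so few fragments allows. Serpina3f, an inhibitor of serine proteases, rose from between 0.377 and 1.23 CPM to between 28.4 and 31.0 CPM (log2 difference 5.23); it has close copies beside it in the genome, among which fragments may be divided. Lipocalin-2 (Lcn2), an iron-binding protein of innate defence, was at 27.4, 22.6, and 18.9 CPM at 15 min and at 414, 404, and 400 CPM at 30 min, a rise of 4.14 on the log2 scale. Among the muscle genes, Myh4, a fast myosin heavy chain, was at 0.848, 0.807, and 0.491 CPM and then at 17.6, 18.1, and 20.8 CPM (4.71).

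**Figure D4:**
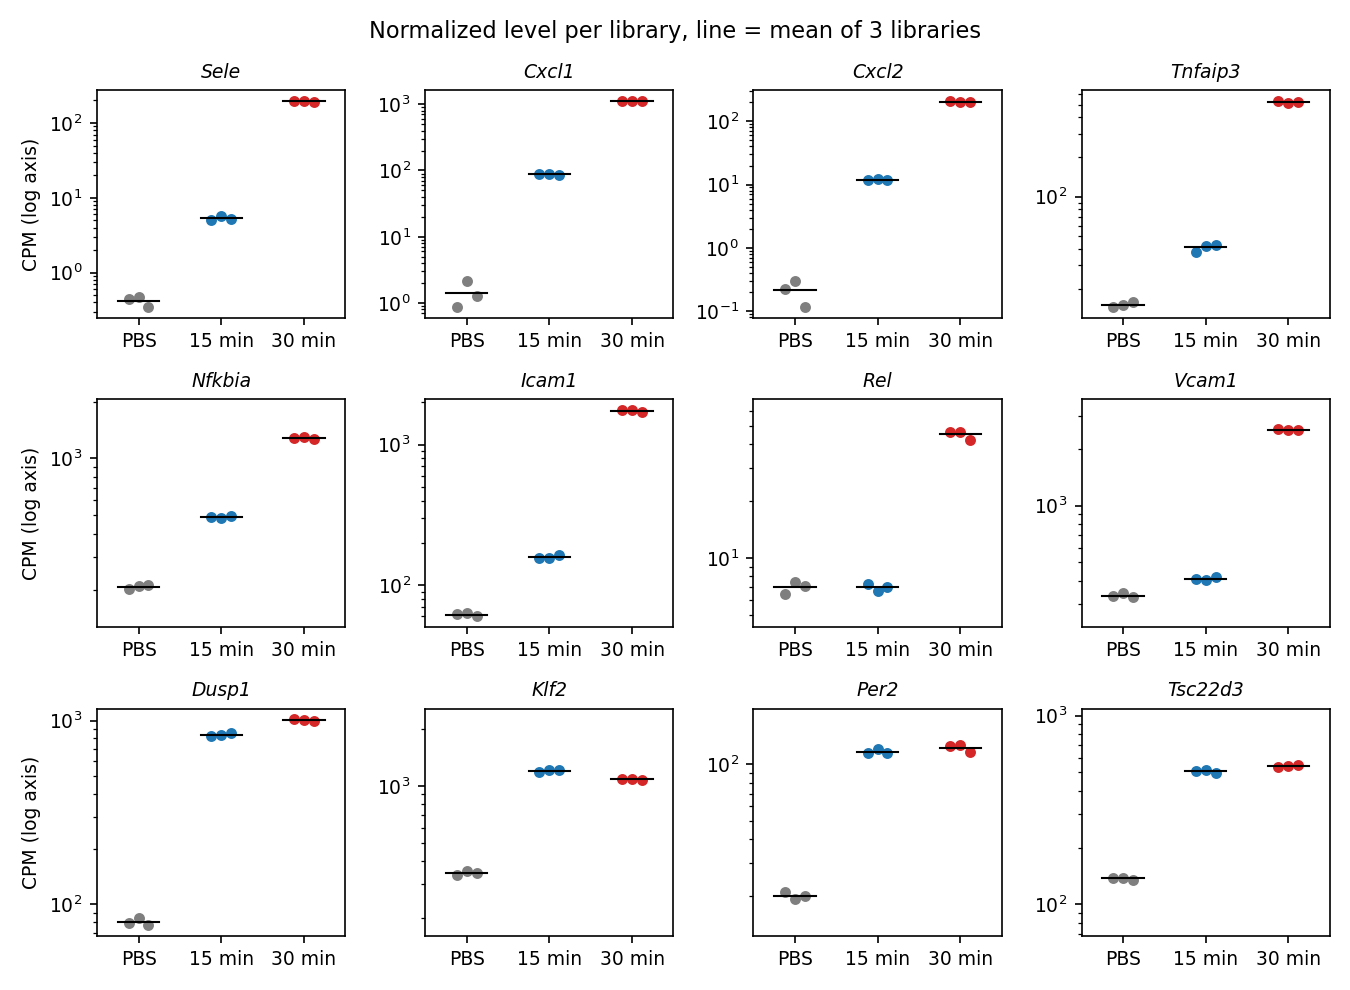
Normalized level in CPM (log axes, which differ between panels) of 12 genes in each PBS, LPS 15 min, and LPS 30 min library; the line marks the mean of 3 libraries. Sele, Cxcl1, Cxcl2, Tnfaip3, Nfkbia, and Icam1 are higher at each time point, Rel and Vcam1 are close to PBS at 15 min or rise little before 30 min, and Dusp1, Klf2, Per2, and Tsc22d3 are at nearly the same level at 15 and 30 min.

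Among genes of the early transcriptional response, most of those raised at 15 min rose again. Of 18 genes of the AP-1 and MAF family 8 rose and 0 fell (median log2 difference 0.54, against -0.0035 over all genes tested), and of 9 EGR and NR4A genes 6 rose and 0 fell (median 1.51). Fosb, a partner of JUN in AP-1, was at 24.8, 25.4, and 25.4 CPM at 15 min and at 211, 212, and 210 CPM at 30 min, a log2 difference of 3.07 ± 0.057 that followed a first step of 3.05. Atf3, an inducible repressor of inflammatory genes, was at 51.0, 49.5, and 52.2 CPM and then at 425, 410, and 424 CPM (log2 difference 3.04). In both genes the 2 groups stood far apart. Jun rose by less, from between 551 and 564 CPM to between 948 and 992 CPM (log2 difference 0.80, edgeR adjusted p = 6.84e-07). Fosl1 was not called at 15 min against PBS, where 9 fragments over the 3 libraries are too few to show that it had not risen. It was at 1.34 to 2.51 CPM at 30 min, from 123 fragments. Egr2 and Egr3, zinc-finger factors, rose by 2.88 and 2.75 on the log2 scale, and Nr4a1, an orphan nuclear receptor, by 1.90. Jund (0.52) and Nr4a2 (0.50) were called at 15 min against PBS and did not pass the test in the second step.

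Of 30 other early response genes 17 rose and 1 fell. Csrnp1, Ccn1, Btg2, and Ier3 climbed again, with log2 differences of 2.30, 2.40, 1.78, and 1.92. Another set was called in the second step only. Gadd45b, a stress-response gene, was at 27.4, 22.9, and 25.6 CPM at 15 min, overlapping PBS (23.2 to 26.6 CPM). It was at 143, 131, and 137 CPM at 30 min (log2 difference 2.43 ± 0.052, edgeR adjusted p = 5.35e-19). Cebpb, a factor of the acute phase response, went from 25.6, 27.4, and 27.7 CPM to 158, 154, and 149 CPM (log2 difference 2.52). Its relative Cebpd had already been raised at 15 min and climbed by a further 1.98. Errfi1, an inhibitor of EGF receptor signalling, was at 28.7 to 33.0 CPM at 15 min, below the 38.9 to 39.4 CPM of PBS, and at 119 to 130 CPM at 30 min. The neuronal early gene Npas4 was the member that fell, from between 26.3 and 27.4 CPM to between 10.9 and 13.2 CPM, which brought it to the PBS level (12.8 to 14.8 CPM).

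Other genes raised at 15 min changed by less than 1.5-fold afterwards, among them Dusp1, Klf2, Klf4, Per2, and Ciart. Dusp1, which inactivates MAP kinases, was at 827, 837, and 852 CPM at 15 min and at 1022, 1008, and 999 CPM at 30 min; its log2 difference of 0.27 (95% interval 0.21 to 0.33) followed a first step of 3.38. Of 16 tested genes of MAPK feedback only Dusp2 (1.87) and Dusp5 (1.80) rose (12.5%, against 2.77% of all genes tested). Of 11 KLF genes 0 were called, against 4.76% of all genes tested, and 5 had been called at 15 min against PBS, against 4.25% of all genes; with so few genes a count of 0 in the second step is near the share of all genes. Klf2, an endothelial factor that responds to blood flow, was at 1182, 1219, and 1207 CPM at 15 min and at 1085, 1093, and 1071 CPM at 30 min, a log2 difference of -0.15 (95% interval -0.20 to -0.10). Klf4 was at 470 to 484 CPM and then at 343 to 347 CPM (log2 difference -0.47), without overlap, but within the limit of 0.58. Of 19 clock genes 10 had been higher at 15 min than in PBS, 1, Bhlhe40, rose again (0.92), and 8 of the list were kept. Per2 was at 115, 121, and 115 CPM at 15 min and at 125, 127, and 116 CPM at 30 min, so that the groups overlapped, and Ciart differed by -0.01. The times of day at which mice were killed are not given in the sources used here. Tsc22d3, a glucocorticoid target, was kept (0.09), whereas Sgk1, another, rose by 1.47, and 9 of 17 glucocorticoid targets rose and 0 fell (median 0.71). Mt2, a metallothionein that binds zinc, was at 84.5, 86.4, and 75.2 CPM and then at 303, 313, and 313 CPM (1.92). Lcn2 and Nfkbia, also in this list, are known as targets of NF-kB too.

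Of the 5 genes of NF-kB subunits 0 were called at 15 min against PBS, and 4 rose in the second step. Rel was at 7.32, 6.71, and 6.98 CPM at 15 min, against 6.41 to 7.49 CPM in PBS, and at 46.7, 46.3, and 42.4 CPM at 30 min. Its log2 difference was 2.68 ± 0.066 (edgeR adjusted p = 7.28e-18). Nfkb2 rose by 1.15 and Relb by 1.07. Rela rose by 0.67, from between 104 and 107 CPM to between 165 and 172 CPM (adjusted p = 0.0148); this call was lost without replicate 3 of LPS 15 min (edgeR adjusted p = 0.0753), without replicate 1 of LPS 30 min (0.0946), with DESeq2 (0.0873), with the length offset (0.125), with limma (0.418), and under scaling by library size alone. Nfkb1 differed by 0.13 and was not called. Of 18 inhibitors and feedback genes 7 rose and 0 fell (median 0.53). Tnfaip3 (A20), an enzyme that edits ubiquitin chains and damps NF-kB signalling, was at 38.1, 42.4, and 42.7 CPM and then at 533, 516, and 521 CPM, a log2 difference of 3.68 ± 0.035 (edgeR adjusted p = 2.76e-26). Nfkbiz, which encodes a nuclear IkB protein, rose by 3.17, Nfkbid by 2.39, and Bcl3 by 1.85, whereas Nfkbia rose by less, from between 486 and 498 CPM to between 1269 and 1295 CPM. The mRNA decay factors Zfp36 (2.06) and Zc3h12a (1.99) rose, and the other 9 of that list were not called (18.2% called, against 4.76% of all genes tested). Upstream, Cd14 was at 6.51, 5.18, and 7.93 CPM at 15 min and at 76.7, 75.8, and 75.3 CPM at 30 min (log2 difference 3.53), and Tlr2 rose by 1.93. Tlr4 itself was at 5.36 to 7.53 CPM and at 6.72 to 7.82 CPM, with overlap, and 20 of the 23 genes of the receptor complex and its signalling were not called.

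Some chemokines and cytokines rose in both steps and others were called in the second step alone, while most members of these lists were not called. Of 12 CXC chemokines 3 rose and 0 fell, all of them climbing again. Cxcl1, which attracts neutrophils, was at 89.8, 89.5, and 84.7 CPM at 15 min and at 1124, 1120, and 1120 CPM at 30 min, a log2 difference of 3.67 ± 0.045 (edgeR adjusted p = 2.01e-24). Cxcl2, a near neighbour on chromosome 5, was at 11.7, 12.1, and 11.8 CPM and then at 211, 205, and 199 CPM (log2 difference 4.11). PBS libraries were at 0.862 to 2.13 CPM for Cxcl1 and at 0.115 to 0.304 CPM for Cxcl2. Cxcl10, which attracts T cells, rose by 3.00. Of 15 CC and CX3C chemokines 7 rose and 0 fell (median 0.82). Ccl2, the monocyte attractant, was at 0.977 to 1.53 CPM and then at 12 to 15.2 CPM (log2 difference 3.44), and had been called at 15 min. Ccl7, at 0.717 to 1.42 CPM and then 11.7 to 13.5 CPM (3.48), had not.

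Of 26 tested cytokines and colony factors 10 rose (38.5%, against 2.77% of all genes tested), each by at least 4-fold, and 0 fell. Tnf was at 2.51, 2.00, and 2.83 CPM at 15 min and at 23.9, 22.6, and 20.6 CPM at 30 min (log2 difference 3.18 ± 0.17, edgeR adjusted p = 1.63e-11). Il1b was at 2.46 to 2.78 CPM and then at 20.1 to 21.5 CPM (2.99), and both had been raised at 15 min. Csf1, the macrophage colony factor, was new: it was at 102, 102, and 105 CPM at 15 min and at 635, 619, and 593 CPM at 30 min, a log2 difference of 2.58 ± 0.028 (edgeR adjusted p = 9.53e-25). Il1a, from 8 to 152 fragments over 3 libraries, rose by 4.39. Il6 had no fragment in any 15 min or PBS library and 36 over the 30 min libraries, so that it was at least 13.9-fold higher (against a floor of 3 counts over the group). With no fragment for Il6 and 2 for Il10 at 15 min, lower levels could not be seen at this depth.

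Leukocyte adhesion genes rose in 5 of 18 cases (27.8%, against 2.77% of all genes tested) and fell in 0. Beside the selectins, Icam1, a ligand of leukocyte integrins, was at 157, 156, and 165 CPM at 15 min and at 1752, 1769, and 1714 CPM at 30 min (log2 difference 3.45 ± 0.025, edgeR adjusted p = 3e-28). Vcam1 was at 408, 404, and 420 CPM, and then at 2555, 2516, and 2506 CPM, a difference of 2.62; it had been within 0.58 of PBS at 15 min (0.30). Icam4 (2.98, from 20 to 140 fragments over 3 libraries) lies directly downstream of Icam1 on the same strand, at chr9:21029373-21030595. The constitutive junction and adhesion genes Pecam1 (0.14), Icam2 (0.09), and Esam (0.06) were not called. Ackr1, a chemokine receptor of venules chosen after its values were seen, was at 19.2, 19.3, and 20.7 CPM and then at 151, 148, and 150 CPM (2.92).

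Among enzymes and signals that act on vessel tone and clotting, Ptgs2 (cyclooxygenase-2) was at 80.1, 80.5, and 80.1 CPM at 15 min and at 908, 873, and 863 CPM at 30 min (log2 difference 3.46 ± 0.024, edgeR adjusted p = 1.32e-28). Ptges, the enzyme that completes the synthesis of prostaglandin E2, rose by 1.52 and was new. Rgs16, which shortens G-protein signals, went from between 15.8 and 16.9 CPM to between 133 and 143 CPM (3.10). Bdkrb2, a bradykinin receptor, rose by 2.22 from a low level (0.552 to 0.983 CPM at 15 min). Edn1, which encodes the vasoconstrictor endothelin-1, had been at 112 to 114 CPM in PBS and was at 78.7, 77.5, and 74.2 CPM at 15 min and at 130, 129, and 127 CPM at 30 min (0.74); the call was lost under scaling by library size alone. The other 24 of 27 genes of vascular tone were not called (11.1% called, against 4.76% of all genes tested). Plaur, the urokinase receptor, climbed again (2.22), and Thbs1 (1.62) was new. Adamts1, a secreted protease, rose by 1.33. Of 36 angiogenic genes 34 were not called, and the 5.56% called is near the 4.76% of all genes tested. Rnd1, a small GTPase that loosens cell adhesion, was at 25.9, 27.4, and 28.3 CPM and then at 390, 398, and 386 CPM, a rise of 3.85 on the log2 scale.

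Of the 34 genes of the blood-brain barrier 0 were called between 15 and 30 min (median -0.09), which is near the 4.76% called over all genes tested. Cldn5, the main claudin of the barrier, was at 1417, 1416, and 1426 CPM at 15 min and at 1267, 1267, and 1273 CPM at 30 min. This difference of -0.16 was small and in the same direction as the first step of -0.73. Slc2a1, the glucose transporter, was at 4402 to 4503 CPM and then at 5500 to 5538 CPM (0.31), and Mfsd2a, a lipid transporter that restrains transcytosis, differed by -0.13. For Slc2a1 the groups did not overlap, as was the case for 47.6% of all genes tested. Irf1 (2.37) and Gbp5 (0.95) rose, 9.09% of 22 interferon genes, against 2.77% of all genes tested. The other 20 were not called, among them Ifit1 (0.21) and Isg15 (0.34).

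Of 8 SOCS genes, which encode inhibitors of cytokine signalling, 1 rose (12.5%, against 2.77% of all genes tested) and 1 fell (12.5%, against 1.99%). Socs3 rose from between 19.1 and 23.8 CPM to between 38.9 and 44.5 CPM (log2 difference 0.96, edgeR adjusted p = 2.39e-05). The member that fell was Socs7, whose values varied widely within PBS and are given below. Of 22 genes of survival and death 5 rose (22.7%, against 2.77% of all genes tested) and 0 fell. Birc3, an inhibitor of apoptosis, was at 19.3, 19.8, and 21.0 CPM at 15 min and at 47.2, 42.9, and 47.5 CPM at 30 min (1.2). Casp4, an inflammatory caspase that senses LPS inside cells, rose by 1.47, and Mcl1, which opposes apoptosis, by 0.84.

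Heat shock chaperones rose in 9 of 28 cases (32.1%, against 2.77% of all genes tested) and fell in 0 (median 0.55). Hspa1a, an inducible HSP70, was at 343, 359, and 385 CPM and then at 1851, 1849, and 1834 CPM (log2 difference 2.35), and Hspa1b, a nearly identical copy, differed by 2.21; fragments may be divided between them. Dnajb1, their co-chaperone, rose by 1.98. The constitutive Hspa8 rose by 0.66, and this call was lost under scaling by library size alone, as was that of Hsp90aa1 (0.77). Actb, often used as a reference gene, was at 1743 to 1800 CPM at 15 min and at 3135 to 3140 CPM at 30 min (0.83 ± 0.020, edgeR adjusted p = 1.02e-10), whereas Gapdh (0.32) and Rplp0 (0.26) were not called.

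NF-kB is known to bind kB sites near many inflammatory genes, and a few promoters are printed so that such letters can be seen in place. Shown, from RefSeq on GRCm38.p6, are the 160 bases before the start of transcription, 5′ to 3′ on the strand of the gene, for Cxcl2, Tnfaip3, and Cxcl1, which climbed again, for Rel, Csf1, and Irf1, which were new, and for Dusp1 and Klf2, which were kept. The first 6 were chosen because they rose and hold a match, after their values and sequences were seen, so they are not a sample of the genes that rose. Sele, Lcn2, Ptgs2, and Icam1 also rose and hold no match in their 300-base promoters, and Il6, measured by 36 fragments, holds one and is not printed. They lie at chr5:90903739-90903898 (plus strand), chr10:19015411-19015570 (minus strand), chr5:90891085-90891244 (plus strand), chr11:23770970-23771129 (minus strand), chr3:107760470-107760629 (minus strand), chr11:53769854-53770013 (plus strand), chr17:26508473-26508632 (minus strand), and chr8:72318902-72319061 (plus strand). Capitals mark the letters of the kB consensus, on either strand, with overlapping matches joined.
Cxcl2: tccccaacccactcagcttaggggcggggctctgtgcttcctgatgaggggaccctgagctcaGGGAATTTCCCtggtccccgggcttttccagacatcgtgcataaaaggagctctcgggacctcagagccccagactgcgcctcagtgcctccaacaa
Tnfaip3: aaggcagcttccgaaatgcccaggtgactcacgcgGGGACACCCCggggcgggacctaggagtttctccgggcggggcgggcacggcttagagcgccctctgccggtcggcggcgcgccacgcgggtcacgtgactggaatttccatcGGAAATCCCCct
Cxcl1: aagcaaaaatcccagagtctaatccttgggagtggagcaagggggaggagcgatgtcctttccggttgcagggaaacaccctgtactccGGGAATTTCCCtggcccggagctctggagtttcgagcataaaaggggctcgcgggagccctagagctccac
Rel: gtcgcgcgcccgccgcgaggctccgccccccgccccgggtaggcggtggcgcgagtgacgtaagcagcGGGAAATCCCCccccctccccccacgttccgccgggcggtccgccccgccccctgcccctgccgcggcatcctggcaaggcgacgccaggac
Csf1: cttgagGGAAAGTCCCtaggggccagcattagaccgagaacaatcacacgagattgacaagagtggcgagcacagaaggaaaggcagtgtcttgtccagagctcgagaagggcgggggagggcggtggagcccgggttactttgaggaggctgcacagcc
Irf1: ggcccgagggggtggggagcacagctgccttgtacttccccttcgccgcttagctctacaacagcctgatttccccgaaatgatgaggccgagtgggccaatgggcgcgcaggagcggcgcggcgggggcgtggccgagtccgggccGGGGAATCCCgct
Dusp1: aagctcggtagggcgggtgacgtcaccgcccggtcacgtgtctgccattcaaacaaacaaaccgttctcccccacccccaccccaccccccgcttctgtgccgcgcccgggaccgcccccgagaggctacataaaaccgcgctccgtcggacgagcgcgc
Klf2: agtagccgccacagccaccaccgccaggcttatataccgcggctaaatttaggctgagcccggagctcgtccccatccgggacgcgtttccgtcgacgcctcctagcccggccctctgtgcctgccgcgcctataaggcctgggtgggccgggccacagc

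In Cxcl2 and Cxcl1 the same letters stand 97 and 71 bases before the start. Dusp1 and Klf2 hold no match in this window, which says only that these letters are not there. Over promoters of 300 bases (250 before to 50 after the start, 1 per gene, matched by symbol), the kB letters were found in 11 of 58 genes that climbed again (19.0%), in 30 of 301 that were new and rose (9.97%), in 0 of 85 kept from a rise at 15 min, in 8 of 171 that rose and turned back (4.68%), and in 681 of all 13215 tested genes with a promoter (5.15%). The TATAAA letters were in 25.9% of the promoters that climbed again, 14.3% of the new, 10.6% of the kept, 8.19% of those that turned back, and 8.29% of all tested. The AP-1 letters TGANTCA were in 8.62%, 9.63%, 5.88%, 4.09%, and 5.52% of the same sets. Both strands were searched, and matches received no test.

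The classes also differed in gene length, which the rule did not use. The 76 genes that climbed again spanned a median of 5.15 kb of the genome, against 19.0 kb over all genes tested, and 71.1% of them were shorter than 10 kb (33.3% of all). Their median transcript had 4 exons, against 6 over all genes. Genes that were new and rose had a median span of 15.6 kb, those kept after a rise 21.7 kb, and those that rose and then turned back 38.7 kb, with 30.1% longer than 100 kb (12.5% of all). Spliced lengths differed less, with medians of 2.40 kb in the genes that climbed again and 3.85 kb in those that turned back.

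**Figure D5:**
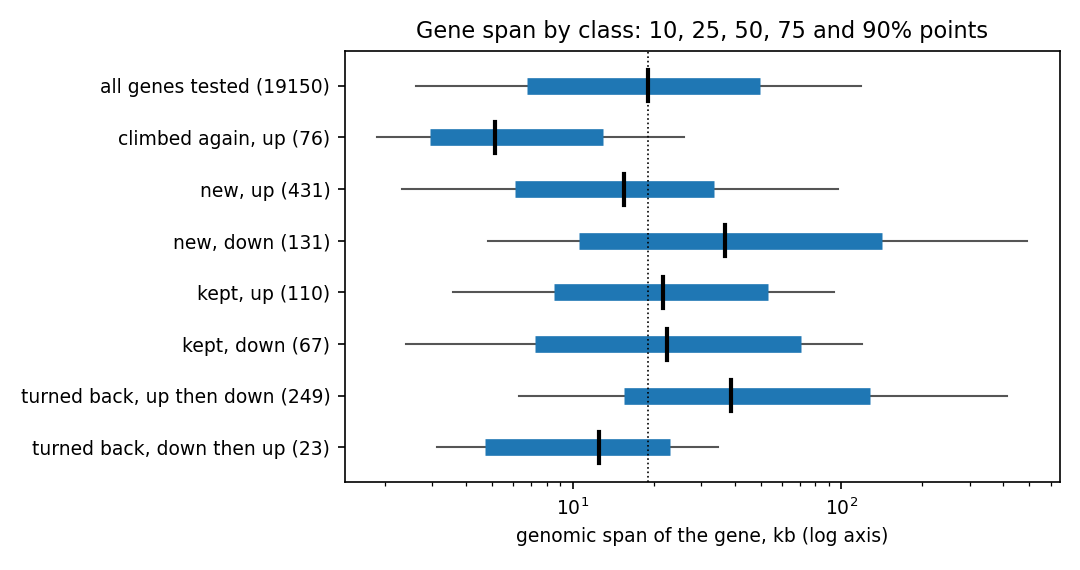
Genomic span in kb (log axis) of the genes in each class, with the number of genes in parentheses; the thick bar runs from the 25% to the 75% point, the thin line from the 10% to the 90% point, and the black mark is the median. The dotted line is the median of all genes tested, 19.0 kb; genes that climbed again have a median of 5.15 kb and genes that rose and turned back one of 38.7 kb.

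Of the 272 genes that turned back, 249 had risen at 15 min and fallen by 30 min, and for 205 of these the interval at 30 min lay within 0.58 of PBS. Genes of neurons were among them. Of the 8 neuronal markers 3 fell and 0 rose: Slc17a7, the vesicular glutamate transporter, was at 166, 173, and 167 CPM at 15 min and at 85.0, 86.3, and 87.4 CPM at 30 min, against 70.7 to 72.7 CPM in PBS (log2 difference -0.97 ± 0.041, edgeR adjusted p = 2.42e-08). Camk2a fell by 0.85 and Syt1 by 0.84. Genes chosen after their values were seen include the glutamate receptor genes Gria2, at 127, 132, and 133 CPM and then at 56.8, 53.1, and 55.5 CPM (-1.24), and Grm5 (-1.23), and the sodium channel gene Scn1a (-1.06). In each of these 6 genes the 15 min libraries stood above both the PBS and the 30 min libraries, as did the summed neuronal markers. The part that brain tissue beside the vessels had in this group was not tested.

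The largest falls were in genes of secretory epithelium. Muc5ac, a gel-forming mucin, was at 14.4, 18.6, and 17.2 CPM at 15 min and had no fragment in any PBS or 30 min library, so that it was at least 379-fold lower at 30 min. Gp2 (8.07 to 9.32 CPM at 15 min) and Reg3g (3.83 to 5.77 CPM) had the same pattern, at least 199-fold and 108-fold lower. These 3 were the called members among 7 tested markers of secretory epithelium, from a list of 10. Of the untested members, Prss2 and Scgb1a1 had no fragment in any library, and Cpa1 had 2 in 1 library at 15 min. The list was at 28.7 to 34.5 CPM at 15 min, 1.89 to 2.34 CPM at 30 min, and 1.62 to 2.98 CPM in PBS. Most of the sum at 15 min was from Muc5ac, Gp2, and Reg3g, with means of 16.7, 8.73, and 4.76 CPM. Among the other large falls, Socs7 varied from 0.150 to 26.1 CPM within PBS, and its call (-7.43) was lost with limma on the normalized table (adjusted p = 1). Gm20388 spans 4435 kb of chromosome 8 across other genes, and fragments cannot be assigned to it alone. Lrrtm4, a synaptic adhesion gene, was at 4.88, 5.99, and 4.27 CPM and then at 1.99, 1.33, and 1.30 CPM (-1.70).

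Conversely, 23 genes had fallen at 15 min and rose by 30 min. Ptgds, which makes prostaglandin D2 and is abundant in the choroid plexus and leptomeninges, was at 2711, 2679, and 2615 CPM at 15 min and at 5856, 5855, and 5929 CPM at 30 min (log2 difference 1.14 ± 0.020, edgeR adjusted p = 2.1e-17), above the 4879 to 4971 CPM of PBS. The smooth muscle genes Cnn1 (1.05) and Actg2 (1.2) followed the same course, and the summed smooth muscle markers went from 2855 to 2891 CPM in PBS to 1868 to 1904 CPM at 15 min and 2599 to 2631 CPM at 30 min. Slc6a12, a betaine transporter, was at 4.85, 3.99, and 5.70 CPM and then at 10.8, 11.4, and 10.1 CPM (1.15); its call was lost when transcript lengths were used as an offset (log2 difference 0.69, edgeR adjusted p = 0.998) and with limma on the normalized table (0.74, adjusted p = 1).

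Transcripts annotated as retaining an intron took 5.98% to 6.0% of the fragments at 15 min, 4.76% to 4.81% at 30 min, and 5.16% to 5.18% in PBS. Within the 76 genes that climbed again the share was 2.20% ± 0.0078 (SD, n = 3) at 15 min and 1.95% ± 0.029 at 30 min, against 1.11% ± 0.12 in PBS. The groups did not overlap, and the exact two-sided permutation test gave p = 0.1, the smallest that 3 against 3 allows (Benjamini-Hochberg adjusted 0.2 over 4 tests). In genes that were new and rose the share was 4.16% ± 0.097 at 15 min and 4.08% ± 0.081 at 30 min (exact permutation p = 0.3), and in genes that rose and turned back 11.7% ± 0.13 and 11.6% ± 0.083 (exact permutation p = 0.2). In TPM, which weighs short transcripts more, the differences were larger, at -0.374, -0.284, and -1.004 percentage points against -0.254, -0.0772, and -0.137. Mitochondrial fragments went the other way, from 5.81% to 6.06% at 15 min to 7.65% to 8.04% at 30 min, and the part of this shift in the results was not tested.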

How the data were processed

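RNA of cerebral vessels was sequenced from SMART-Seq v4 cDNA, a kit that does not mark strand, with Nextera XT libraries read on a NovaSeq instrument. The authors ran Salmon 1.2.1 on each library, and the deposited estimated counts are the fragments it assigned to each Ensembl transcript, not normalized. The deposited TPM values are the same abundances scaled by the authors for effective transcript length and to a constant sum. A deposited gene table holds a normalized signal, tximport gene sums after the authors' DESeq2 normalization for depth and transcript length. The build is GRCm38.p6.

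Of 140948 transcripts 139852 were joined to GENCODE M21 (GRCm38), and their counts were summed per gene, rounded, and tested in edgeR 4.0.16 (R 4.3.3). filterByExpr (minimum count 10) left 19150 genes. A single quasi-likelihood fit with TMM factors took all 12 libraries, and glmTreat tested each contrast against at most 0.58 on the log2 scale, with Benjamini-Hochberg adjustment over all genes tested. The SE is the log2 difference divided by the square root of F, from the test against no change. For large changes from few fragments it can be too small. Groups came from the sample titles, and replicates are the 3 libraries of a group, each labelled as a pool of 2 mice; whether the pools shared mice is not stated, so p-values measure the spread between libraries, which may be technical. On simulated data of this size, 34 of 50 genes doubled and 50 of 50 raised 4-fold were called, and 0 of 18950 unchanged genes. The changed genes were drawn above a floor in CPM, the spread followed expression level alone, and no shift shared by a group was simulated. The rates therefore do not cover changed genes with the fewest fragments or differences in cell content between groups. No column was left out.

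Named genes are the 10 largest rises and falls whose groups stood apart and whose mean count reached 50, members of the lists, up to 6 genes per class, and Actb, Gapdh, and Rplp0; others are said to be chosen after their values were seen. Members and lists were chosen with earlier results of these data known. The list entries Cyr61 and Ctgf are Ccn1 and Ccn2 in the annotation. Alternatives were DESeq2 1.42.0, limma 3.58.1 on the normalized table (pseudocount 1), other scalings, filters, and fold limits, a length offset, a replicate block, and leaving out libraries.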

Additional observations from a re-analysis of the deposited data

Results flagged for a closer look

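The step from 15 to 30 min reversed the side of PBS on which 3 genes stood, and the difference between the time points was itself past the edgeR threshold in each. Selp was below PBS at 15 min and above it at 30 min (log2 difference 30 min minus 15 min 6.26). Tnfaip2, a TNF-induced gene of endothelial cells, was at 13.2 to 14.4 CPM in PBS, at 7.39, 7.09, and 7.74 CPM at 15 min, and at 29.2, 28.6, and 27.6 CPM at 30 min (1.94). B230334C09Rik was at 10.1 to 11.1 CPM in PBS, at 23.1, 22.0, and 24.8 CPM at 15 min, and at 5.59, 5.29, and 5.63 CPM at 30 min (-2.08). It is annotated as antisense and overlaps the end of Lrrc40 on the other strand, and without strand the reads of both genes cannot be told apart there.

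Transcripts that did not join the annotation, and so enter no comparison, took a median of 0.666% of the fragments at LPS 15 min, above the 0.497% to 0.510% of the PBS libraries, and 0.482% to 0.491% at LPS 30 min. With 3 libraries per group, no single library was tested for standing apart from its group.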

How the results depend on the processing

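DESeq2 gave 225 falls (381 in edgeR) and 168 genes that turned back (272). Scaling by library size alone gave 660 falls. A quasi-likelihood test followed by a limit of 0.58 gave 1155 rises, 1155 falls, 126 genes that climbed again, 1276 new, 476 kept, and 908 turned back; with no fold limit these were 3674, 3479, 846, 2863, 2450, and 3444. limma on the normalized table gave 309 rises, 139 falls, 290 new, 88 kept, and 96 turned back. Under RLE factors, no filter, no LPS 4 h libraries, and the length offset all 6 counts stayed within 1.5 times. In TPM the retained-intron differences were -0.374, -0.284, and -1.004 percentage points. Leaving out 1 library at a time gave 452 to 535 rises, 319 to 383 falls, 74 to 79 climbed again, 464 to 586 new, 141 to 170 kept, and 231 to 257 turned back. Retained-intron differences then ranged from -0.266 to -0.237, from -0.133 to -0.0327, and from -0.201 to -0.0761 percentage points for the genes that climbed again, were new, and turned back. Where these counts moved, the cause was not tested, beyond the fold limit itself.

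Libraries with the same number did not deviate together (18 correlations from -0.0489 to 0.0679). The spread between libraries may be technical, so these values cannot decide whether the numbers pair the mice. A replicate block gave 516 rises and 374 falls, and its fit lost 1 of 133 calls among named genes.

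None of the named genes called between 15 and 30 min reversed in any of these settings. Of the 133 calls, 12 were lost without at least 1 library (Rela, Plat, Traf1, Il1rn, Angpt4, Angptl4, Slc10a6, Hspa2, Hspb8, Col6a4, 1700016P03Rik, and Zxda), 9 with DESeq2, 11 with library size only, 12 with the length offset, and 25 with limma. Depth limited genes with few fragments at 15 min, such as Il6, Csf3, and Selp, whose fold changes are imprecise; counting intervals were not attached. Time point and handling of the pools cannot be told apart.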
